A study of Mus musculus with 3 samples.

Results

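The genes described here are 35 genes of sterol and fatty acid synthesis: 20 enzymes that make cholesterol and isoprenoids, 9 enzymes that make, elongate and desaturate fatty acids, 5 regulators of both routes and the sterol carrier gene Stard4. They were named as a list and matched by symbol, and all 35 were found in the gene tables, which hold 22015 nuclear protein-coding genes. The cells were macrophages differentiated from the bone marrow of C57BL/6J mice. They were pre-treated for 12 hours with Lipid A at 100 ng/ml, washed and left for 12 hours, and given 100 ng/ml Lipid A again for 25 minutes, and cytosolic RNA was sequenced once ribosomal RNA had been depleted. Lipid A is the endotoxin moiety that the receptor TLR4 recognises. This is 1 group of 3 libraries, biological replicates 1, 2 and 3, all with the same treatment, so no treated and untreated cells were compared and the values describe levels and their spread. The labels give neither sex nor age, and the 3 biosamples carry 1 donor entry, so SDs and p-values describe these samples alone and their spread may be technical.

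Cells build cholesterol from acetyl-CoA through the mevalonate pathway to farnesyl diphosphate, then through squalene and lanosterol to a series of late sterols. The transcription factors SREBP-2, from Srebf2, and SREBP-1, from Srebf1, drive these genes. Both are held in the endoplasmic reticulum by Scap and the Insig proteins while sterol is plentiful and are cut free in the Golgi when it is scarce. SREBP-1 acts mostly on fatty acid genes and SREBP-2 mostly on sterol genes. In macrophages this pathway is known to be coupled to Toll-like receptor signalling and to oxysterols.

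SREBP target genes are classically recognised by a sterol regulatory element (SRE) near CCAAT and GC boxes, bound by NF-Y and Sp1, so the proximal promoters are shown before the levels. RefSeq gave 37 start-site windows for 28 of the 35 genes on build GRCm38.p6, each the 250 bases upstream of the start. The window of Fads1, Sqle, Fdft1, Stard4, Fdps, Scd1 and Scd2 was not used here. The 5 windows below were printed because they are the start sites of the sterol enzyme genes Hmgcs1 and Mvd, of the fatty acid synthase gene Fasn and of the transcripts Srebf1-201 and Srebf1-207, and because no annotated exon overlaps them. A further Srebf1 window, at the start of the noncoding transcript Srebf1-204, is not printed. Each is read 5′ to 3′ on the strand of its gene, with matches to the SRE letters TCACNCCAC, to CCAAT and to the GC box GGGCGG, on either strand, in capitals.
Hmgcs1, chr13:119690101-119690350, plus strand: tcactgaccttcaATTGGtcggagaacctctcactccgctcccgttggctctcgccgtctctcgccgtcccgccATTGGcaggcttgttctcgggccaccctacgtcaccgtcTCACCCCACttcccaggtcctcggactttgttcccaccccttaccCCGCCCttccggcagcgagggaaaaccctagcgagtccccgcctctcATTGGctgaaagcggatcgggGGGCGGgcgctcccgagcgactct
Mvd, chr8:122443423-122443672, minus strand: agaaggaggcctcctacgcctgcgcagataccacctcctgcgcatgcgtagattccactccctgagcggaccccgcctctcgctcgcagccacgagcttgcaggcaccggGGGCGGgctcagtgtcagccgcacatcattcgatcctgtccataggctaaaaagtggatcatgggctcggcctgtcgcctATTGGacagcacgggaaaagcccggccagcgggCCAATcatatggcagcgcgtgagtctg
Fasn, chr11:120824548-120824797, minus strand: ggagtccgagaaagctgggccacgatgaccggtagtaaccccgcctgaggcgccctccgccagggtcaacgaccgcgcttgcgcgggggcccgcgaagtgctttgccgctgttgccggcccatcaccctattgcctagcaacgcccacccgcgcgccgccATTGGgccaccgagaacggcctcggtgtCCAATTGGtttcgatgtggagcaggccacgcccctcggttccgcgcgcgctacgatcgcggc
Srebf1-201 start, chr11:60220628-60220877, minus strand: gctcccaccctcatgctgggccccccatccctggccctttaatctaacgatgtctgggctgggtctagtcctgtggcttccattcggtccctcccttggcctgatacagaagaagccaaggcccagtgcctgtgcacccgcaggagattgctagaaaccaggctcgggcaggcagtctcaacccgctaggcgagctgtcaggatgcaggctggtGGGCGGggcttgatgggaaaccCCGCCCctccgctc
Srebf1-207 start, chr11:60210472-60210721, minus strand: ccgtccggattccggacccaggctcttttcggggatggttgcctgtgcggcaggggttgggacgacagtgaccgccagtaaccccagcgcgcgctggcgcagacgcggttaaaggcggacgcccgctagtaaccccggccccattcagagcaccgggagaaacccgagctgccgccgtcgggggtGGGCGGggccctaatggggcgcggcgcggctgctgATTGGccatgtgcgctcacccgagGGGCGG

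Hmgcs1 was the only one of the 28 genes whose window held the 9 letters of the SRE, beginning 137 bases before the start, with CCAAT letters on the opposite strand beginning 237, 176 and 45 bases before it. The Mvd window held CCAAT letters at 60 and 27 bases before the start and a GC box at 140. Fasn held 3 CCAAT matches, at 90, 62 and 59 bases before the start, of which the last 2 overlap. The Srebf1-201 window held 2 GC boxes and no CCAAT letters, and the Srebf1-207 window held 1 CCAAT match at 30 bases and 2 GC boxes.

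Across the set, CCAAT letters were present in 62.2% of the 37 windows, against 35.2% of 9819 windows of expressed genes and 33.8% of all 32851 windows. By gene, 22 of the 28 had a match in at least 1 window, and no such share was computed for expressed genes. Insig2, Me1, Pmvk, Dhcr7 and Srebf1 are counted there although each also had a window without CCAAT letters. The gene count does not weigh how much each start was used. The GC box was in 70.3% of the windows, against 58.3% and 32.7%. The median GC content was 62.8%, against 60.0% in expressed genes and 52.4% overall. The full SRE letters were in 2.7% against 0.988% and 1.05%. A shorter form, TCACNCCA, which the full form contains, was in the windows of Hmgcs1, Msmo1 and Srebf2 (8.11%, against 3.38% and 3.67%). The E-box CACGTG was in 5 genes, Dhcr7, Hsd17b7, Insig1, Sc5d and Scap (13.5% of windows, against 8.8% and 6.02%). A match is a description of letters and says nothing of binding.

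The 3 libraries held 55517261, 21311556 and 45635014 expected counts. The unit TPM divides a gene's counts by its length and scales each library to the same total of 1000000, so levels of different genes are compared in TPM. Macrophage identity of the material was checked with 8 macrophage markers, among them Adgre1, Csf1r and Lyz2, none of which fell below 1 TPM in any library. Their summed level lay between 4924 and 7591 TPM. None of 8 adipocyte and hepatocyte markers and none of 10 markers of other blood and stromal cells reached 1 TPM on average (summed levels 0.12 to 0.49 and 0.16 to 0.42 TPM). Adipoq, Plin1, Cidec, Lep, Alb, Ttr and Serpina1a, markers of the tissues best known for making fat and sterol, had no counts in any library. In bulk libraries, fewer cells of a type and less RNA per cell cannot be told apart.

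Most of the pathway was present at moderate RNA levels. Of the 35 genes, 33 reached 1 TPM in each of the libraries, against 42.1% of protein-coding genes, and Elovl6 and Me1 did not. In the table made directly from reads the count was 25, and the share of all genes was not computed there. The median over the genes was 8.07, 8.30 and 6.97 TPM in replicates 1, 2 and 3, or 7.78 ± 0.711 (SD, n = 3). The 9604 protein-coding genes whose mean was 1 TPM or more, called expressed genes here, had a median of 9.33 ± 1.38 TPM. Only Scd2 lay in the top 10% of those genes, and 13 of the 35 were in the upper 50%. Counts per gene and library ran from 77 for Me1 in replicate 2 to 50601 for Scd2 in replicate 1.

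**Figure D1:**
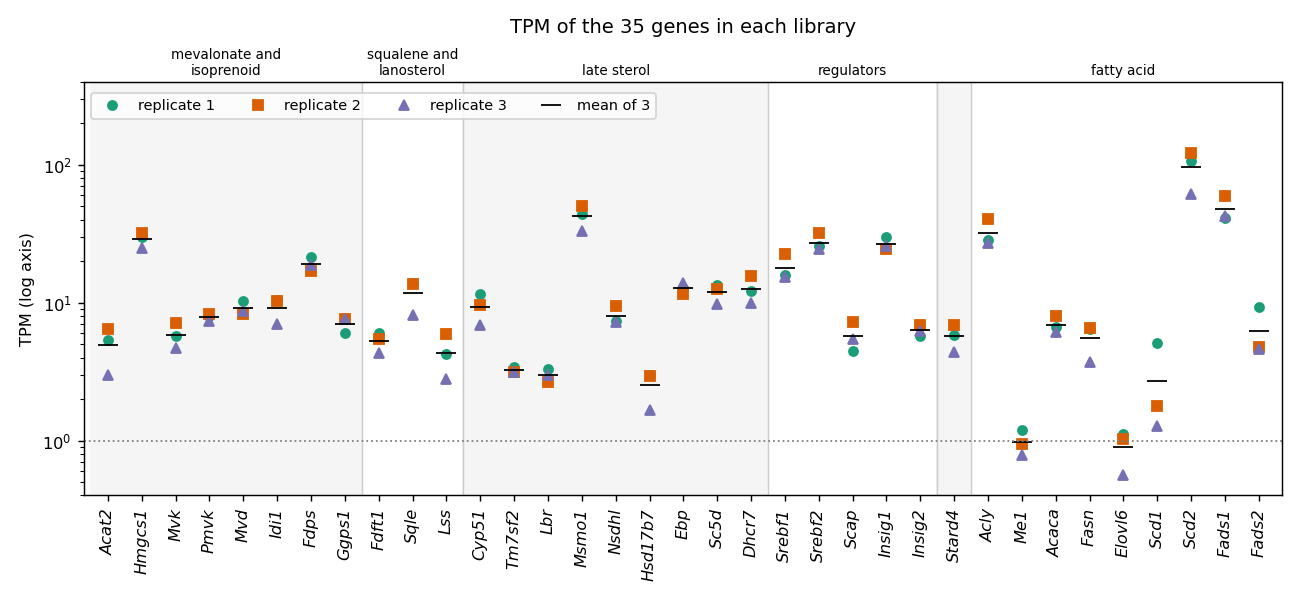
TPM of each of the 35 genes (log axis) in replicates 1 to 3, grouped by role; the bar is the mean and the dotted line is 1 TPM. Scd2 lies above all others (mean 96.5 TPM), and Me1 and Elovl6 lie near 1 TPM (means 0.973 and 0.900).

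The 8 enzymes from acetyl-CoA to the isoprenoid diphosphates spanned 4.92 to 29.2 TPM. Hmgcs1, which makes HMG-CoA, was the most abundant of them, at 30.2, 32.3 and 25.0 TPM. Fdps, which makes farnesyl diphosphate, followed at 21.5, 16.9 and 18.9 TPM. Neither gene's 3 libraries overlapped those of the other 6 enzymes, which lay between 2.98 and 10.4 TPM in any library. Idi1, the isomerase, had 9.22 ± 1.95 TPM and Mvd, the decarboxylase, 9.13 ± 1.06 TPM. The kinase genes Pmvk and Mvk had 7.94 ± 0.478 and 5.86 ± 1.20 TPM. Ggps1, which makes the geranylgeranyl diphosphate used for protein prenylation, had 7.06 ± 0.886 TPM. Acat2, the thiolase of the opening step, was lowest on average, at 5.36, 6.42 and 2.98 TPM, and its value in replicate 3 was the lowest of any of the 8 genes. Exact or near copies of Fdps, Acat2, Idi1 and Ggps1 exist in the annotation, so their counts can be shared among them. Idi1 shares 684 bases at 100% identity with the processed copy Gm13502, which was listed at 1.49, 2.14 and 0 TPM. The other copies of these genes were at no more than 0.13 TPM.

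The 3 enzymes that carry farnesyl diphosphate to lanosterol spanned 4.33 to 11.8 TPM. Sqle, the oxygenase that inserts the epoxide into squalene, had 13.8, 13.6 and 8.10 TPM and stood above the other 2 in each library. Fdft1, squalene synthase, had 6.00, 5.44 and 4.31 TPM. Its exons share 774 bases with those of the very abundant protease gene Ctsb on the opposite strand (1921 to 4073 TPM). Whether reads were counted by strand is not given in the sources used here, so the Fdft1 level is uncertain. Lss, which closes lanosterol, had 4.28, 5.92 and 2.79 TPM.

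Among the 9 late sterol enzymes, Msmo1 stood apart. It encodes the methylsterol oxidase that removes the methyl groups at carbon 4, and had 43.7, 50.5 and 32.9 TPM, all above the highest value of any other late enzyme (15.7 TPM, Dhcr7 in replicate 2). A middle group was formed by Ebp (12.8 ± 1.11 TPM), the sterol isomerase, Dhcr7 (12.6 ± 2.93 TPM), which reduces 7-dehydrocholesterol, Sc5d (11.9 ± 1.89 TPM), the desaturase before it, Cyp51 (9.36 ± 2.30 TPM), the lanosterol demethylase, and Nsdhl (8.04 ± 1.24 TPM), the partner of Msmo1. In this order each of the 5 overlaps its neighbour. The lowest were Tm7sf2 (3.24 ± 0.163 TPM), Lbr (2.99 ± 0.310 TPM) and Hsd17b7 (2.53 ± 0.748 TPM). Tm7sf2 and Lbr both reduce the sterol double bond at carbon 14, and Lbr is also an inner nuclear membrane protein. Their difference on the log2(TPM + 1) scale was -0.09 ± 0.08, the same sign in 3 of 3 libraries, and it changed sign to 0.03 in the table made directly from reads. Tm7sf2 shares 532 exonic bases with Vps51 (12.3 to 24.2 TPM) on the same strand, so its level is uncertain too.

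The annotated transcripts of Msmo1 were of a coding and a noncoding kind. The coding transcript Msmo1-201 took 64.0%, 43.9% and 67.3% of the gene's TPM, and the noncoding processed transcript Msmo1-206 took 34.3%, 55.2% and 32.1%. The order of these forms was reversed in replicate 2. In the table made directly from reads Msmo1-206 took 18.4%, 50.6% and 16.9%, and Msmo1-201 took 75.7%, 47.7% and 80.2%. Of the 35 genes, 30 had at least 95% of their counts in coding transcripts on average, against 71.0% of 9596 expressed genes. The others were Msmo1 (69.1%), Lss (81.3%), Ggps1 (91.1%), Srebf2 (92.3%) and Tm7sf2 (94.9%). In Lss the retained-intron transcripts held 17.3%, 23.6% and 14.2% of counts.

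Several other enzyme genes were split between coding transcripts, described here after their values were seen. Hmgcs1-201 and Hmgcs1-202, both of 520 codons, took 69.7% ± 3.26 and 27.8% ± 1.45 of the gene's TPM. Sc5d-202 and Sc5d-201, both of 299 codons, took 74.9% ± 1.78 and 22.1% ± 3.59. In both genes the protein encoded has 1 length and the order was the same in every library. Acly-203 of 1101 codons took 48.7% ± 3.67 and Acly-207 of 1091 codons 40.0% ± 3.48, so neither form dominated. A further coding form, Acly-201, took 4.65%, 0 and 18.6%. The read-based mean shares of Acly-203, Acly-207 and Acly-201 were 44.5%, 24.0% and 18.4%, so the split depends on the table. Acat2-201 took 94.8%, 47.2% and 97.7%, with Acat2-204 at 49.1% in replicate 2 and 0 in the others. In the read-based table Acat2-204 took 19.1%, 61.1% and 0 in replicates 1, 2 and 3. Fasn-201 took 39.6%, 56.1% and 31.5% and Fasn-205 33.2%, 22.9% and 34.8%, and in the read-based table Fasn-205 was the larger on average (65.7% against 24.6%). Retained-intron forms also held part of the Fasn TPM. Fasn-203 took 12.7%, 20.9% and 8.36% and Fasn-202 took 12.1%, 0.152% and 21.6%, with read-based means of 2.1% and 3.94%.

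The 5 regulators had a median of 17.9 ± 3.89 TPM and fell into a higher group of Srebf2, Insig1 and Srebf1 and a lower one of Insig2 and Scap. Srebf2 had 25.6, 31.9 and 24.4 TPM and Srebf1 15.9, 22.4 and 15.4 TPM. In each library Srebf2 exceeded Srebf1, by 0.59 ± 0.09 on the log2(TPM + 1) scale (3 of 3 libraries, exact two-sided sign-flip permutation p = 0.25, the smallest that 3 libraries allow, and 0.25 after Benjamini-Hochberg adjustment over the 5 pairs tested). Insig1 had 30.0, 24.6 and 26.0 TPM against 5.76, 6.94 and 6.19 TPM of Insig2, a difference of 1.93 ± 0.25 and a ratio of 5.21, 3.55 and 4.20. Insig1 is itself a well-known SREBP target and Insig2 is not. Scap, the escort that brings SREBP to the Golgi, had 4.45, 7.22 and 5.43 TPM and was the lowest of the 5 on average, overlapping Insig2. The test of the other pairs also gave p = 0.25 by the same exact permutation, which can show no more than a shared direction.

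Srebf1 has several annotated starts, and 2 of its coding forms are described here. Srebf1-201, of 1134 codons, begins at base 60220604 of chromosome 11 and has the upstream coding start, the arrangement known as SREBP-1a, the form with the longer activation domain. Srebf1-207, of 1022 codons, begins downstream at base 60210465, the arrangement known as SREBP-1c, the form prominent in liver and fat. Srebf1-201 took 66.7%, 58.5% and 69.7% of the gene's TPM and Srebf1-207 took 13.2%, 13.0% and 15.0%. Srebf1-201 exceeded Srebf1-207 in every library, also in the read-based table, where the mean shares were 48.9% and 20.4%. The coding form Srebf1-203, starting at base 60207188, had 5.36%, 8.82% and 8.70%, and the noncoding Srebf1-204, starting furthest upstream at base 60222581, had 3.78%, 8.37% and 5.78%. The promoters of Srebf1-201 and Srebf1-207 are the last 2 sequences shown above. Rai1, on the opposite strand, shares 109 exonic bases with Srebf1.

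Srebf2 was carried by Srebf2-201 (80.4% ± 2.71), with the retained-intron transcript Srebf2-205 at 20.8%, 16.1% and 15.8%. Insig1-201 held 91.1%, 98.2% and 98.8% of Insig1, Insig2-201 held 91.0% ± 8.34 of Insig2 and Scap-201 held 88.7% ± 7.63 of Scap. The retained-intron form Insig1-202 was highest in replicate 1 (8.92%, 1.79% and 1.23%), and Scap-202 was at 11.5% in replicate 2 and 0 in the others.

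**Figure D2:**
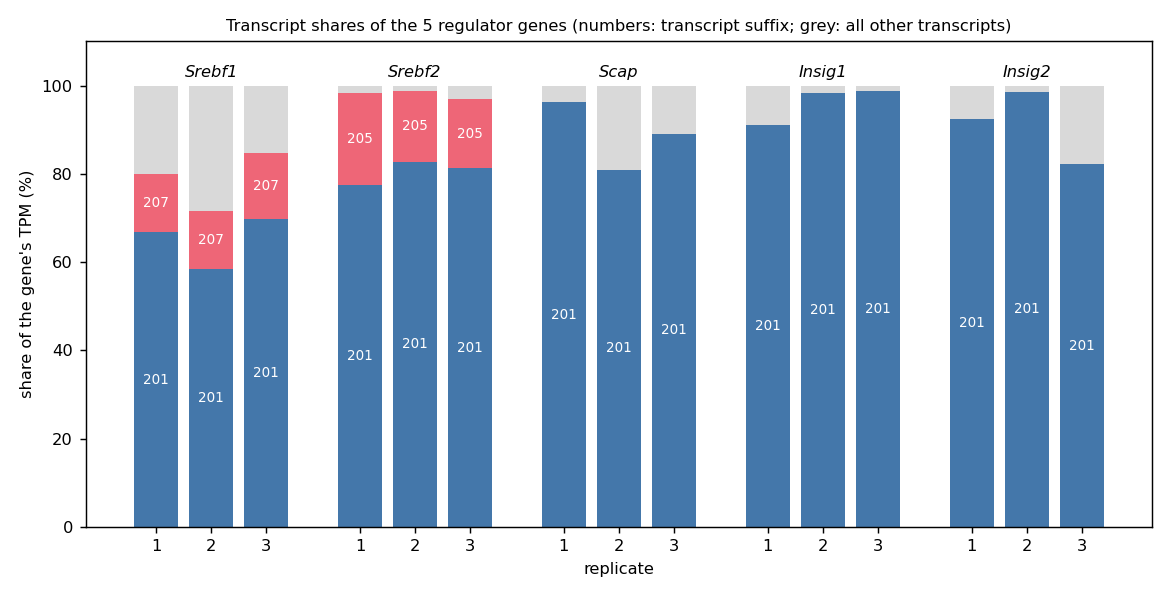
Share of each regulator gene's TPM (%) held by its transcripts with a mean of at least 10%, in replicates 1 to 3; grey is all other transcripts. The Srebf1 form 201 takes 58.5% to 69.7% and the form 207 takes 13.0% to 15.0%.

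Stard4, a soluble carrier of sterol between membranes and a known SREBP target, had 5.86, 6.95 and 4.38 TPM.

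The fatty acid enzymes had the widest range, from 0.900 to 96.5 TPM. Acly, which makes cytosolic acetyl-CoA from citrate, had 28.6, 40.8 and 27.3 TPM. Acaca, which makes malonyl-CoA, had 6.62, 8.08 and 6.10 TPM, and Fasn, fatty acid synthase, 6.47, 6.59 and 3.72 TPM. The chain-building enzymes were therefore between 3.72 and 8.08 TPM while the acetyl-CoA source was between 27.3 and 40.8 TPM. The counts of Acaca can be shared with the processed copy Gm5182 (99.2% identity over 6118 bases, 0.04 to 0.09 TPM). Elovl6, which lengthens palmitate, had 1.11, 1.03 and 0.56 TPM. Me1, the cytosolic malic enzyme that supplies NADPH, had 1.19, 0.94 and 0.79 TPM. It shares sequence with Gm7329, which was listed at 4.37 TPM in replicate 2 and at 0.08 and 0.15 TPM in the others.

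The stearoyl-CoA desaturase genes, which put the double bond into saturated fatty acids, differed most. Scd2 (chr19:44293674-44306864, plus strand, mm10) had 107, 121 and 61.9 TPM, and its neighbour Scd1 (chr19:44394455-44407879, minus strand) had 5.08, 1.78 and 1.28 TPM. The lowest Scd2 library exceeded the highest Scd1 library. The difference was 4.80 ± 0.65 on the log2(TPM + 1) scale, and the ratio was 21, 67.8 and 48.3. Scd2 and Scd1 share 623 bases at 95.5% identity, which is 11.4% of the Scd2 transcript. The front-end desaturase genes for polyunsaturated fatty acids also differed: Fads1 had 41.4, 59.9 and 42.5 TPM and Fads2 9.25, 4.79 and 4.63 TPM, a difference of 2.80 ± 0.69. Scd2 alone made up 51.8%, 49.3% and 41.6% of the summed TPM of the 9 fatty acid enzymes.

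Sterol enzymes exceeded fatty acid enzymes by 0.45 ± 0.10 in the median of log2(TPM + 1), in 3 of 3 libraries. The sign depended on the low members. With members under 5 TPM left out it was -0.63, and taken over means it was 0, so the order of the groups rests on which members enter and how they are averaged.

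Replicate 1 held more of these RNAs, relative to other protein-coding RNAs, than the other libraries did, and replicate 3 the least. For this comparison each gene's counts were expressed per 1000000 counts in nuclear protein-coding genes (protein-coding CPM), and a library was set against the mean of the other 2 with an offset of 0.1. Of the 35 genes, 33 were expressed by the limit above, and all 33 were above the mean of the others in replicate 1, which held for 67.2% of the 9604 genes; it was 31 of 33 with TMM library sizes, 30 with DESeq2 size factors and 21 in TPM. Replicate 1 was the highest of the 3 libraries for 32 of them (47.5% of the 9604), with Fads1 the exception. The 35 genes together held 0.326%, 0.267% and 0.211% of protein-coding counts in replicates 1, 2 and 3. Scd2 alone supplied 50601 of their 156400 counts in replicate 1, 16898 of 52229 in replicate 2 and 21077 of 85484 in replicate 3.

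The median log2 ratio of the 33 genes was 0.52, -0.09 and -0.37 in replicates 1, 2 and 3, against 0.09, -0.02 and -0.09 over all 9604. The members' medians thus lay 0.42 above, 0.07 below and 0.28 below those of all genes. Without replicate 3 the first of these was 0.26, and without replicate 1 the last was -0.13 and that of replicate 2 was 0.13. In replicate 1, 12 of the 33 genes were over 1.5-fold above the other libraries (4.24% of the 9604): Acat2, Mvd, Fdps, Fdft1, Sqle, Cyp51, Lbr, Sc5d, Fasn, Scd1, Scd2 and Fads2. In replicate 3, 9 were over 1.5-fold below (4.05%), and 24 had their lowest value there (47.0%). In that library 32 of the 33 were below the mean of the others (64.4%), the exception being Ebp. In replicate 2, 3 were over 1.5-fold below (5.5%): Fdps, Scd1 and Fads2. Those counts depend on the scale and on single libraries. With TMM library sizes 5 genes passed 1.5-fold in replicate 1 and 5 in replicate 3, and the 9 genes became 3 without replicate 1.

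The largest differences were in desaturase and elongase genes. Scd1 had 38.2, 11.2 and 9.47 protein-coding CPM, Fads2 51.1, 19.2 and 21.9, and Elovl6 10.7, 5.82 and 4.12. Replicate 1 stood apart from the other 2 for each. Scd2 and Fasn instead were low in replicate 3, with 1056, 863 and 520 and with 82.5, 67.9 and 36.4 protein-coding CPM. Of the sterol enzymes, Cyp51 differed most in replicate 1 (78.1, 48.2 and 41.1 protein-coding CPM) and Acat2 in replicate 3 (20.2, 16.2 and 9.73). Sqle followed the same order, at 66.4, 47.4 and 33.1. Of the regulators, Scap had 32.6, 32.5 and 31.5 protein-coding CPM, Srebf1 101, 96.8 and 90.0, and Srebf2 201, 188 and 167. Insig1 was the widest of them, at 130, 82.1 and 103. None of the 5 passed 1.5-fold in a library, but few of the 9604 genes did (4.24%, 5.5% and 4.05% in the directions given above).

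**Figure D3:**
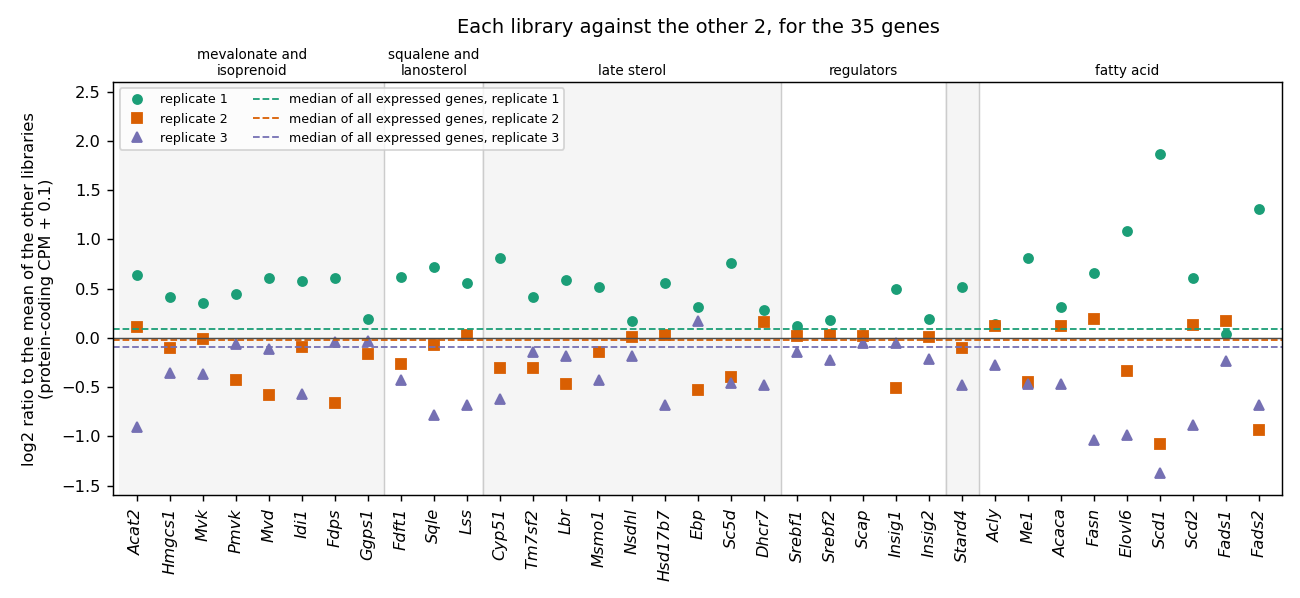
Log2 ratio of a library over the mean of the other 2, in protein-coding CPM with an offset of 0.1, for the 35 genes by role; dashed lines are the medians of all expressed genes. Replicate 1 lies above 0 for all 35 genes on this scale (21 of the 33 expressed ones in TPM), with Scd1 (1.87) and Fads2 (1.31) highest, and Srebf1, Srebf2, Scap and Insig2 lie between -0.22 and 0.19 in every library.

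The TPM values order the libraries differently, and protein-coding genes held 29.6%, 40.4% and 34.8% of TPM in replicates 1, 2 and 3. In TPM the median ratio of all genes was -0.26, 0.33 and -0.12. Relative to that shift the members were at 0.33, -0.02 and -0.22, the same signs as in protein-coding CPM. Other values differed between the libraries too. The nuclear noncoding RNAs Malat1 (8329, 3480 and 1444 protein-coding CPM) and Neat1 (924, 212 and 152) were highest in replicate 1. The falling order of replicates 1, 2 and 3 that both show was that of 23 of the 33 genes, against 25.9% of the 9604. Of 22 members with retained-intron counts, 16 had the highest retained-intron share in replicate 1, a share close to the 76.9% of all 5757 expressed genes with such counts. With coding transcripts alone the members' medians were 0.45 above, 0.08 below and 0.29 below those of all genes, about as large as with all transcripts. Reads of nuclear RNA can also be counted in coding transcripts, so the part of nuclear RNA in the pattern was not tested. The 8 macrophage markers had a median log2 ratio of -0.07 in replicate 1, and 1 of the 8 lay above 0 there, against 67.2% of the 9604. The lowest were Fcgr1 (-0.56) and Itgam (-0.47). The exception was Cd14, which was 0.82, -0.31 and -0.63 in replicates 1, 2 and 3.

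The spread of single genes was estimated with edgeR as the biological coefficient of variation, the relative SD between libraries beyond counting error. It had a median of 0.182 over the 35 genes, against 0.157 over 9591 expressed genes, and 23 of the 35 lay above that value. The excess depended on single libraries. Without replicate 1 the 2 medians were 0.159 and 0.158, and without replicate 3 they were 0.162 and 0.156. Without replicate 2 they were 0.186 and 0.162. By role, with all 3 libraries, the median was 0.135 for the regulators, 0.187 for the mevalonate enzymes and 0.191 for the squalene enzymes. It was 0.194 for the late sterol enzymes and 0.236 for the fatty acid enzymes. Scd1 (0.425), Elovl6 (0.328), Fads2 (0.305) and Me1 (0.301) were the 4 members beyond 0.263, the edge of the top 10% of the 9591 expressed genes. That is 4 of 35, a share close to 10%, and Elovl6 and Me1 had means below 1 TPM and so were not among the 9591. Acly (0.140), Fads1 (0.144) and Acaca (0.145) in the same group were below the median, and Srebf1 had the lowest value (0.120).

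**Figure D4:**
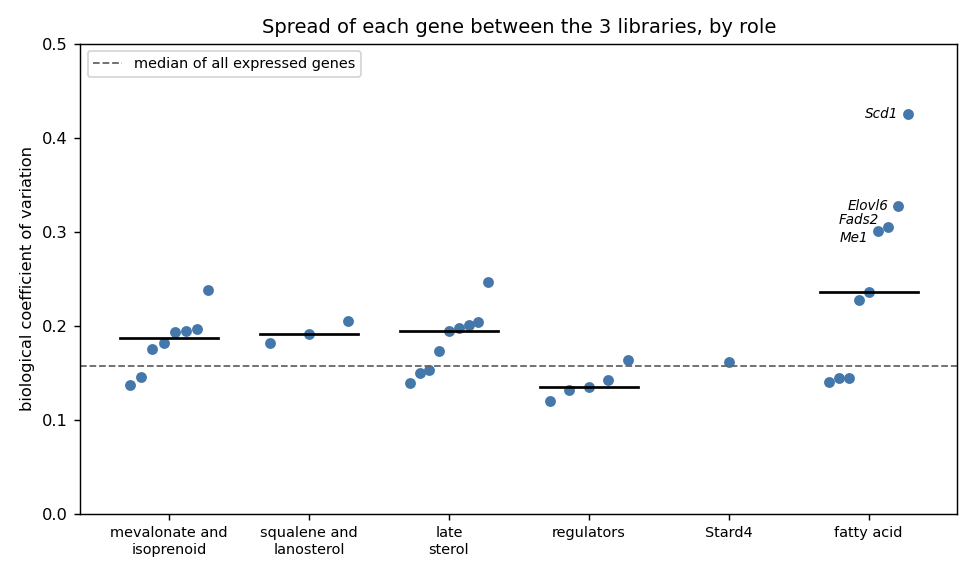
Biological coefficient of variation between the 3 libraries for each gene (points), by role, with the role's median (bar) and the median of all expressed genes (dashed, 0.157). The regulators lie between 0.120 and 0.164 and the fatty acid enzymes between 0.140 and 0.425.

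Genes around the pathway were described from 4 further lists. All 9 genes that process SREBP or degrade sterol-regulated proteins reached 1 TPM in each library. Among them were the ubiquitin ligase gene Syvn1 (19.2 ± 5.41 TPM) and Mbtps2 (13.7 ± 2.05 TPM), the site-2 protease that frees SREBP. Their median log2 ratio in replicate 1 was 0.05, with 0 of 9 past 1.5-fold, but few of the 9604 genes were (4.24% above). All 12 genes that use isoprenoid diphosphates for prenylation and dolichol also reached 1 TPM in each library. Nus1 (19.8 ± 2.85 TPM), a subunit of the dolichol-making prenyltransferase, Rabggtb (13.5 ± 0.704 TPM) and Pggt1b (13.5 ± 1.94 TPM), prenyltransferase subunits, were highest, and the list had a median ratio of 0.19 in replicate 1.

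Of 25 genes for fatty acid supply, elongation and activation, 16 reached that level in each library. The highest were Hacd4 (66.3 ± 22.0 TPM), Elovl1 (58.5 ± 20.2 TPM) and Tecr (56.9 ± 15.8 TPM), which serve the elongation of very long chains. Their list had a median ratio of 0.21 in replicate 1. Of its 17 expressed genes, 1 was past 1.5-fold there, against 4.24% of the 9604, so the list is too short to set it apart. Of 9 genes for oxysterols and the sterol-activated receptor LXR, 8 reached 1 TPM in each library. Soat1, which esterifies cholesterol, had 179 ± 21.7 TPM, the exporters Abcg1 and Abca1 had 90.0 ± 24.3 and 81.2 ± 32.0 TPM, and the LXR-alpha gene Nr1h3 had 34.1 ± 6.09 TPM. Each of Soat1, Abcg1 and Abca1 was above every sterol enzyme in every library. Ch25h, which makes 25-hydroxycholesterol, had 0.21, 0.32 and 0.97 TPM, from 22, 10 and 75 counts.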

How the data were processed

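The members and gene lists, and the tests, were chosen with earlier results of these data known. Each library has, per the file headers, a deposited gene table and transcript table of expected counts, TPM and FPKM, with bounds of TPM and, for transcripts, an isoform percent. Another deposited transcript table gives estimated counts and TPM made from the reads. Build mm10 and GENCODE M21 are named in the deposited descriptions. For the aligner, the counting programs and strand use, nothing was given in the sources used here. Of 81881 identifiers, 55536 matched the annotation, and the remainder stayed out.

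Protein-coding CPM was computed from expected counts as a share of nuclear protein-coding counts, times 1000000. Ratios used an offset of 0.1, a mean of at least 1 TPM and a call at 1.5-fold; differences in TPM used a pseudocount of 1. Transcript shares were computed from TPM, and the deposited isoform percent and TPM bounds support no result. Biological coefficients of variation came from edgeR 4.0.16 (R 4.3.3), fitted without covariates to rounded expected counts after filterByExpr and TMM, with DESeq2 1.42.0 as alternative. With 3 libraries the sign-flip permutation test cannot go below 0.25. A count of 0 allows 3 counts, or 0.0626, 0.153 and 0.074 protein-coding CPM in replicates 1, 2 and 3, for counting error only. Genes named outside the list were the 3 highest of each pathway list (1 of these is not reported here) and 5 fixed oxysterol genes; transcripts were those of the regulators with a mean share of at least 10%, and other transcripts were chosen after their values were seen. Copies were found with blastn 2.17.0 (at least 95% identity over 200 bases). The libraries were compared over their counts and differed beyond counting noise, so none was counted as 1 library deposited again. This does not show that they came from separate cultures. Scripts were checked on simulated data. Software for the remainder was pandas 2.3.3 and numpy 2.4.6 under Python 3.11.15, and matplotlib 3.10.9.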

Additional observations from a re-analysis of the deposited data

How the results depend on the processing

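Of 184 alternative values of the summaries, 157 kept their direction and stayed within the limits set: 1 SD over libraries for levels, shares and ratios, and 1.5 times for counts and coefficients. For the library ratios this SD was 0.37 in log2, taken from the members' own medians. It is about as large as the ratios themselves, so smaller shifts of the same sign were not flagged. Differences between paired genes were judged by sign alone. The count of genes at 1 TPM in every library fell from 33 to 25 in the read-based table and to 21 at 5 TPM. The median TPM was 4.11 in the read-based table, 11.2 in FPKM and 22.6 in TPM rescaled to protein-coding genes. In the read-based table each of the 35 genes was lower, by a median ratio of 2.01 (1.3 to 2.33), where protein-coding genes held 20.5%, 21.4% and 7.95% of TPM, and the order of genes was alike (Spearman rho over genes 0.99). Sterol minus fatty acid enzymes was 0.32 in the read-based table, -0.63 at 5 TPM and 0 with means, and Lbr minus Tm7sf2 was 0.03 in the read-based table.

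The members' median ratio moved to 0.08 in TPM in replicate 1 and to 0.31 in replicate 2. With a library left out, replicate 2 lay between -0.34 (without replicate 3) and 0.18 (without replicate 1), and relative to all genes between -0.26 and 0.13. Relative to all genes replicate 1 then lay between 0.26 and 0.39 and replicate 3 between -0.39 and -0.13. Genes over 1.5-fold above in replicate 1 numbered 5 with TMM or DESeq2 and 2 in TPM. Those below in replicate 2 numbered 1 in TPM and between 0 and 9 with a library left out. Those below in replicate 3 numbered 5 with TMM, with DESeq2 or at 5 TPM, and between 3 and 14 with a library left out.

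The read-based shares were 48.9% for Srebf1-201, 20.4% for Srebf1-207, 75.2% for Scap-201 and 67.9% for Insig2-201. The cause of these differences was not tested. Coding-transcript counts, the medians relative to all genes and the counts past 1.5-fold were alternatives chosen after seeing the data. No paired analysis was possible because the libraries form 1 group. Groups of 3 libraries were not screened for single outlying values. Depth is least in replicate 2, where Me1 had 77 counts, Tm7sf2 96 and Elovl6 114.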
